A study of Arabidopsis thaliana with 4 samples.

Results

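The genes described are those of Arabidopsis thaliana whose annotation names an ethylene-responsive or related AP2-domain ("integrase-type DNA-binding") transcription factor. Such descriptions were found at 116 lines of the deposited comparison; 4 were PLETHORA-type loci that the rule leaves out, and 65 of the other 112 had a mean of at least 1 FPKM (a fragment count per transcript length and library size) over all libraries. These 65 genes, of 26822 lines used and 18087 genes tested, are called the ERF genes here. The rule used the level and the description but not the difference between genotypes, though it was set with earlier results of these data known. Just inside the minimum lay AT4G32800 at 1.03 FPKM and AT4G31060 at 1.24, and just outside it AIL5 at 0.989 and AT1G22810 at 0.960.

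RNA-seq was done on the root tip of 5-d-old Col-0 seedlings grown in constant light at 22 °C. Wild type (WT) was compared with SCL28-OX #10, a line that overexpresses SCL28, a GRAS-family transcription factor gene, in the same ecotype. Each genotype had 2 libraries, and the overexpressor is 1 line. The promoter that drives SCL28 in it is not stated in the labels. Nothing in the labels ties a library to its own batch of plants. The p-values therefore cover the spread between libraries alone, and that spread may be technical.

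SCL28 (AT1G63100) stood at 6.78 and 7.57 FPKM in WT and at 2378 and 2300 FPKM in SCL28-OX, higher by 8.16 ± 0.04 (SE) on the log2 scale (limma adjusted p = 1.31e-10). The steps between low FPKM values implied about 26000000 to 32800000 fragments a library, if the scaling of a library rests on the fragments mapped in it. On that footing an ERF gene was read from 28 to 6481 fragments in a library, with a median of 375.5. Root tip markers were present in every library: PLT1 at 6.23 to 8.0 FPKM and SMB, a root cap gene, at 9.98 to 12.8 FPKM.

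The AP2/ERF family is one of the largest groups of plant transcription factors. Its members bind DNA through the AP2 domain, ERF-type proteins mostly at the GCC box and DREB-type proteins mostly at the dehydration-responsive element. Ethylene is sensed by receptors that act through the kinase CTR1 and the membrane protein EIN2 on EIN3 and its relatives, which switch on ERF genes. Many family members answer to other signals, such as wounding, cold, cytokinin or low oxygen, and the name "ethylene-responsive" in an annotation does not show that a gene responds to ethylene.

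Promoter windows are shown for the strongest rise, the strongest fall and the most changed CRF gene, and for the 3 ERF genes that carry a GCC box core. Each window is the 250 bases before the deposited 5′ end of the gene, 5′ to 3′ on the strand of the gene, with the sequence from RefSeq's TAIR10.1 assembly. Capitals mark matches on either strand to GCCGCC (GCC box core), CCGAC (dehydration-responsive element core) or ATGTA.
AT1G64380, 1:23892174-23892423, minus strand: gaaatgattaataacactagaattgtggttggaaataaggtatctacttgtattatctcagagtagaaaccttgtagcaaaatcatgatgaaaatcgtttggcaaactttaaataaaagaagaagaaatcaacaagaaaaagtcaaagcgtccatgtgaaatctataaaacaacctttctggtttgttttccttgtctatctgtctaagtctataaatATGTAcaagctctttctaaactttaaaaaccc
RAP2.6, 1:16263563-16263812, plus strand: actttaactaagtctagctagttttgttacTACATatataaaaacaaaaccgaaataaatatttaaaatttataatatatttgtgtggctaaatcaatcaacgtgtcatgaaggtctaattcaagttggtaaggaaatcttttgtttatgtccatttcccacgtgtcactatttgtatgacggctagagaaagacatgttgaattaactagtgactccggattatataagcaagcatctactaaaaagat
CRF4, 4:13910860-13911109, minus strand: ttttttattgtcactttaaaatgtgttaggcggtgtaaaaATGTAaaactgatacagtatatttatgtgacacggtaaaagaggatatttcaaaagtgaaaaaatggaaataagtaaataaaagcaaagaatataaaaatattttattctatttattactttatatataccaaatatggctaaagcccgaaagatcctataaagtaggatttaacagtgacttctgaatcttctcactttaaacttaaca
ERF11, 1:9956941-9957190, minus strand: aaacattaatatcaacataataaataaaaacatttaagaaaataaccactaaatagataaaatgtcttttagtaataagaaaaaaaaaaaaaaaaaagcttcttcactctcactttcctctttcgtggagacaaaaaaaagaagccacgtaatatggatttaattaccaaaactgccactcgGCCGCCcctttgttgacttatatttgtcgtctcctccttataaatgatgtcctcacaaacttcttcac
RAP2.9, 4:4074546-4074795, minus strand: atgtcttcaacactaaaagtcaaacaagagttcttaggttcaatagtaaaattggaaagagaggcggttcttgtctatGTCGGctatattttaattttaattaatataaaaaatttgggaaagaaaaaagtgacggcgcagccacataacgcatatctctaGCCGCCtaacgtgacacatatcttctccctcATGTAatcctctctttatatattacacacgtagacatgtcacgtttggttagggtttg
AT4G39780, 4:18459181-18459430, minus strand: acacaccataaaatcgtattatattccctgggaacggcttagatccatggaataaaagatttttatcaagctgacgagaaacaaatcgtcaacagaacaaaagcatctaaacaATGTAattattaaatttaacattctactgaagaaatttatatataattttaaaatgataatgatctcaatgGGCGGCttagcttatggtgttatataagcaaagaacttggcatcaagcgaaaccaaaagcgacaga

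The GCC box core was found in the windows of 3 of the 65 ERF genes (4.62%). It was in 2.28% of 17711 windows of genes tested and in 2.11% of 25993 windows of all genes. CCGAC was found in 12 ERF windows (18.5%), against 14.7% of tested and 13.1% of all windows. ATGTA was found in 32 ERF windows (49.2%), against 46.2% of tested and 47.4% of all windows. Of the 19 ERF genes that were lower in SCL28-OX, described next, 0 held GCCGCC, 5 held CCGAC and 10 held ATGTA. A match describes the letters of the window and does not show binding.

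Most ERF genes differed little between the genotypes. At a limma adjusted p under 0.05, 10 of the 65 were higher in SCL28-OX and 19 were lower. Over all 18087 genes tested 32.7% were higher and 33.8% lower, or 66.5% called in either direction. The share of ERF genes called in either direction was 44.6%; whether it differs from that of all genes was not tested. The median log2 change on the log2(FPKM + 1) scale was -0.02 (all genes, -0.01), with a range of -0.55 to 0.56. The median absolute change was 0.16, against 0.25 over all genes. The libraries of a genotype differed by a median of 0.0787 (WT) and 0.0643 (SCL28-OX) on the same scale for these genes. None of the 65 reached 2-fold, where 0.675% of all genes were higher and 0.376% lower by that much, and none was called at 1.5-fold or more on that scale (all genes, 5.95% higher and 3.82% lower). As a plain ratio of mean FPKM, AT1G64380 (1.55) and ERF9 (0.661) passed 1.5-fold. FPKM of the 2 genotypes did not overlap for 41 ERF genes, 18 above and 23 below WT, where 83.6% of all genes did not overlap (41.4% above, 42.1% below). In the authors' deposited table a q-value under 0.05 was given for 24 ERF genes, 9 higher and 15 lower, and for 61.3% of all genes tested.

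Across all genes, long transcripts tended to be higher and short ones lower in SCL28-OX. Spearman's rho between log2 change and transcript length was 0.68 across 17712 genes, and genes are no replicates. The median change went from -0.41 in transcripts of 120 to 910 bases to 0.48 in those of 3106 to 16593 bases. The median ERF transcript had 1338 bases, against 1728 for all tested genes, and 51 of the 65 were shorter than the latter. Among the ERF genes alone rho was -0.01. The 18 ERF genes of 1133 to 1341 bases had a median change of -0.02, where all genes of that length had -0.22. Other lengths went the other way. The 7 ERF genes of 1535 to 1728 bases had -0.33 (all genes, -0.08), and the 4 of 1926 to 2159 bases had -0.07 (all genes, 0.06). With the length trend removed from every library, 24 ERF genes were higher and 15 lower, against 21.2% and 25.8% of 17712 genes (47% in either direction). The median then was 0.10, and 3 were higher by at least 1.5-fold (ORA59, AT5G51190 and AT1G64380; all genes, 3.09% higher and 1.36% lower). With GC content corrected as well, 23 were higher and 14 lower, against 19.2% and 23.9% of all genes (43.1% in either direction). The calls shared by both fits were 9 higher and 14 lower, and no ERF gene was called in opposite directions. Whether the length trend is technical was not tested, so both values are given below, the second as "length-corrected".

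**Figure D1:**
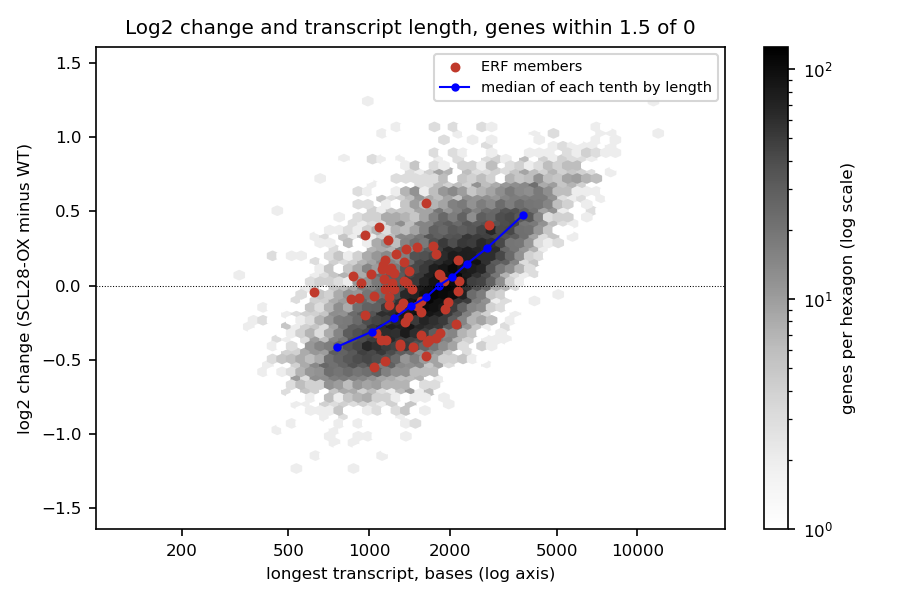
Log2 change, SCL28-OX minus WT, against the length of the longest transcript (log axis); hexagons count tested genes within 1.5 of 0, the line joins medians of genes binned by length, and red points are the ERF genes. The ERF genes lie mostly among shorter transcripts and show less of the rise with length (rho of -0.01) than all genes do (0.68).

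**Figure D2:**
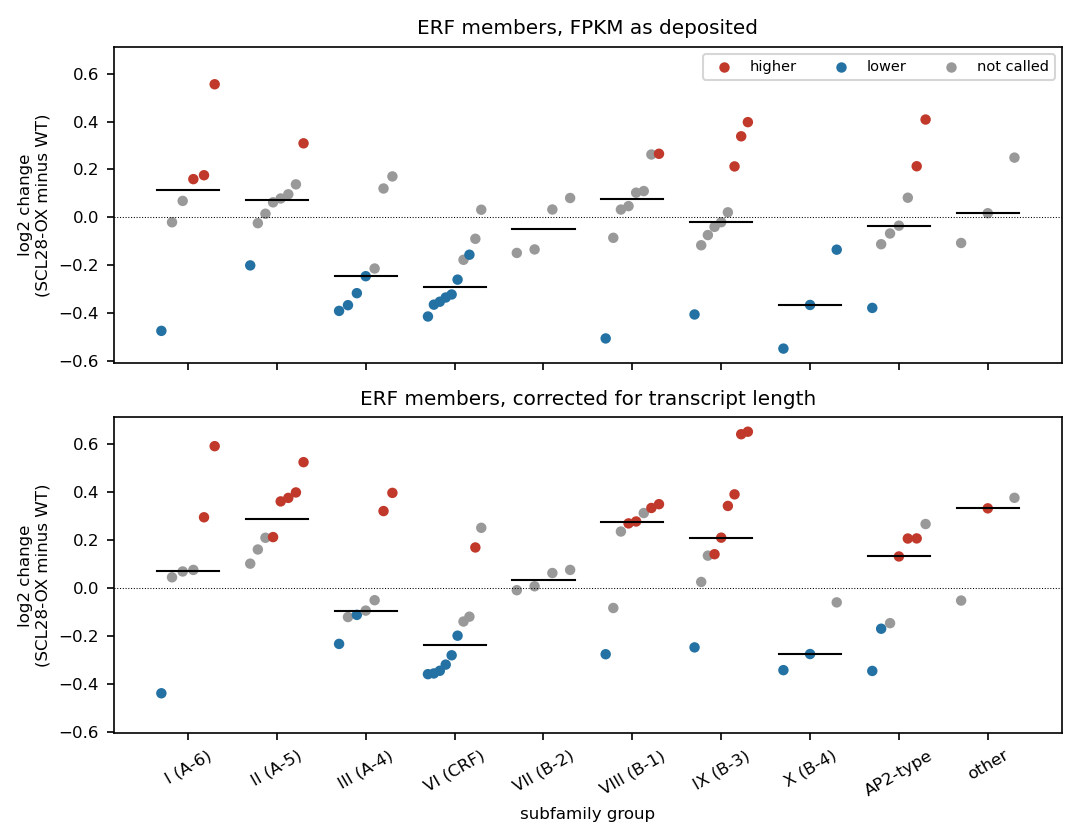
Log2 change (SCL28-OX minus WT, log2(FPKM + 1) scale) of the 65 ERF genes by subfamily, 1 point per gene. CRF, group X and group III genes lie mostly below 0, and group VII genes lie between -0.15 and 0.08.

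Cytokinin response factors (CRFs, group VI with its relatives VI-L) were the subfamily with the most lower calls. CRFs are ERF proteins, several of which are induced by cytokinin and act beside the type-B response regulators. Of 10 CRF-group genes 7 were lower in SCL28-OX, where 33.8% of all genes were, and none was higher; the median log2 change was -0.29. Length-corrected, 6 were lower (25.8% of all genes) and 1, CRF6, was higher. With length and GC corrected 6 were lower and CRF6 was not called (0.003), and with the length inside the deposited interval 5 were lower and CRF6 was not called (0.11). Their summed level was 119.4 and 119.1 FPKM in WT and 96.9 and 96.9 in SCL28-OX. In bulk tissue, fewer cells of a type and less RNA per cell cannot be told apart.

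CRF4 (AT4G27950, TAIR10 chromosome 4, 13909569 to 13910859), linked to cold and nitrogen responses, stood at 21.9 and 22.6 FPKM in WT and at 16.1 and 16.8 in SCL28-OX. Both overexpressor libraries lay below both WT libraries, and the log2 change was -0.41 ± 0.05 (SE; limma adjusted p = 0.000125; length-corrected -0.32). Its window above holds 1 ATGTA and neither of the other motifs. CRF3, which acts in lateral root formation in the cold, went from 24.8 and 23.0 FPKM to 18.1 and 19.4 (log2 change -0.33; length-corrected -0.28). AT1G71130 (CRF8) read 13.3 and 14.1 FPKM against 11.3 and 9.58. It was lower by this fit (log2 change -0.36, limma adjusted p = 0.00405) but not length-corrected (-0.14, limma adjusted p = 0.185). The other lower calls were CRF1 (-0.35; length-corrected -0.36), AT1G68550 (-0.32 and -0.35), AT3G25890 (-0.26 and -0.36) and CRF2 (-0.16 and -0.20). CRF1 lost its call with the length inside the deposited interval (-0.14, limma adjusted p = 0.272). RefSeq's notes put AT1G68550 and AT3G25890 in B-6 and not beside the CRFs. Without a call were CRF5 (-0.18; length-corrected -0.12), AT1G22985 (-0.09 and 0.25) and CRF6 (0.03; length-corrected 0.17, limma adjusted p = 0.0483), CRF6 being a cytokinin-induced regulator of leaf senescence.

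**Figure D3:**
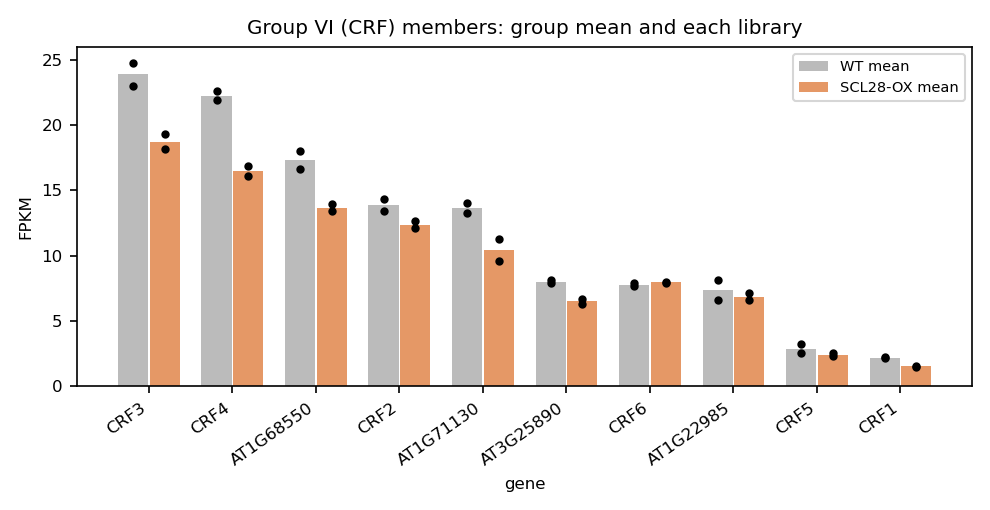
FPKM of the CRF-group genes in each of the 4 libraries, 1 point per library, with the mean of each genotype. For 7 of the 10 genes both SCL28-OX libraries lie below both WT libraries, as they do for 42.1% of all genes tested.

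All 3 group X genes were lower, where 33.8% of all genes were, but only 2 of them when length-corrected (25.8% of all genes). RAP2.6 (AT1G43160, chromosome 1, 16263813 to 16264818), induced by abscisic acid and stress, had the largest fall among the ERF genes. It read 61.1 and 63.7 FPKM in WT and 42.7 and 42.0 in SCL28-OX, or 62.4 ± 1.81 and 42.4 ± 0.464 (SD, n = 2). The groups were well apart, and the log2 difference was -0.55 ± 0.03 (SE; limma adjusted p = 6.59e-06; length-corrected -0.28). AT2G33710 (ERF112) fell from 17.1 and 17.3 FPKM to 14.1 and 12.3 (log2 change -0.37; length-corrected -0.34). Rap2.6L, which takes part in the rejoining of cut stems, was lower by only -0.13 (limma adjusted p = 0.0395), a call lost when length-corrected (-0.06, limma adjusted p = 0.337).

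Group III is here the DREB A-4 type, as no DREB A-1 gene matched the descriptions. It had 4 of 7 genes lower (all genes, 33.8%) and none higher (32.7%), with a median of -0.25. When length-corrected, 2 were lower (all genes, 25.8%) and 2 higher (21.2%). TINY (tny, AT5G25810), a growth-restraining DREB gene, is among the most abundant ERF transcripts of these libraries, at 126 and 127 FPKM in WT against 103 and 110 in SCL28-OX. Its log2 change was -0.25 ± 0.03 (SE; limma adjusted p = 0.000491) and -0.11 length-corrected, and it was not called with length and GC corrected (-0.05, limma adjusted p = 0.255). AT2G44940 (ERF034) fell from 19.8 and 20.4 FPKM to 14.9 and 15.296 (log2 change -0.39; length-corrected -0.23). AT5G52020 (ERF025) read 18.9 and 18.1 against 14.6 and 13.6 FPKM (-0.37), which was not called when length-corrected (-0.12, limma adjusted p = 0.103). The 2 genes higher only when length-corrected were AT3G60490 (0.40) and AT4G16750 (0.32).

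Group I, the DREB A-6 type, held the largest rise and 1 of the largest falls. AT1G64380 (ERF061, chromosome 1, 23890646 to 23892173) rose most of all ERF genes, from 6.31 and 6.08 FPKM to 9.51 and 9.64. The means were 6.20 ± 0.164 and 9.57 ± 0.0863 (SD, n = 2), and the log2 change was 0.56 ± 0.06 (SE; limma adjusted p = 0.000112; length-corrected 0.59). The RAP2.4 genes, wound-induced regulators of dedifferentiation, had different calls. RAP2.4 (AT1G78080, WIND1) read 73.7 and 71.4 FPKM in WT and 82.7 and 81.5 in SCL28-OX. Its log2 change of 0.18 was called here but not when length-corrected (0.07, limma adjusted p = 0.1). RAP2.4 was called higher with length and GC corrected (0.12, limma adjusted p = 0.0124). So it was with the length inside the deposited interval (0.11, limma adjusted p = 0.0239). AT1G22190 (WIND2) fell from 61.0 and 58.4 FPKM to 43.4 and 42.1 (log2 change -0.47 ± 0.04 (SE), limma adjusted p = 1.71e-05; length-corrected -0.44). AT1G36060 (WIND3) was not called, at 35.7 and 36.9 against 37.6 and 38.6 FPKM (0.07; length-corrected 0.04), but was with length and GC corrected (0.12, limma adjusted p = 0.0256). AT4G39780, 1 of the 3 with a GCC box core, read 26.1 and 26.8 against 30.9 and 28.4 FPKM, a log2 change of 0.16. The change was 0.29 length-corrected (limma adjusted p = 0.00204) and 0.36 with length and GC corrected. Uncorrected, it was not called without SCL28-OX replicate 1 (0.10, limma adjusted p = 0.109), nor when WT replicate 1 was left out (0.14, limma adjusted p = 0.0898) or eBayes had no trend (limma adjusted p = 0.0564).

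**Figure D4:**
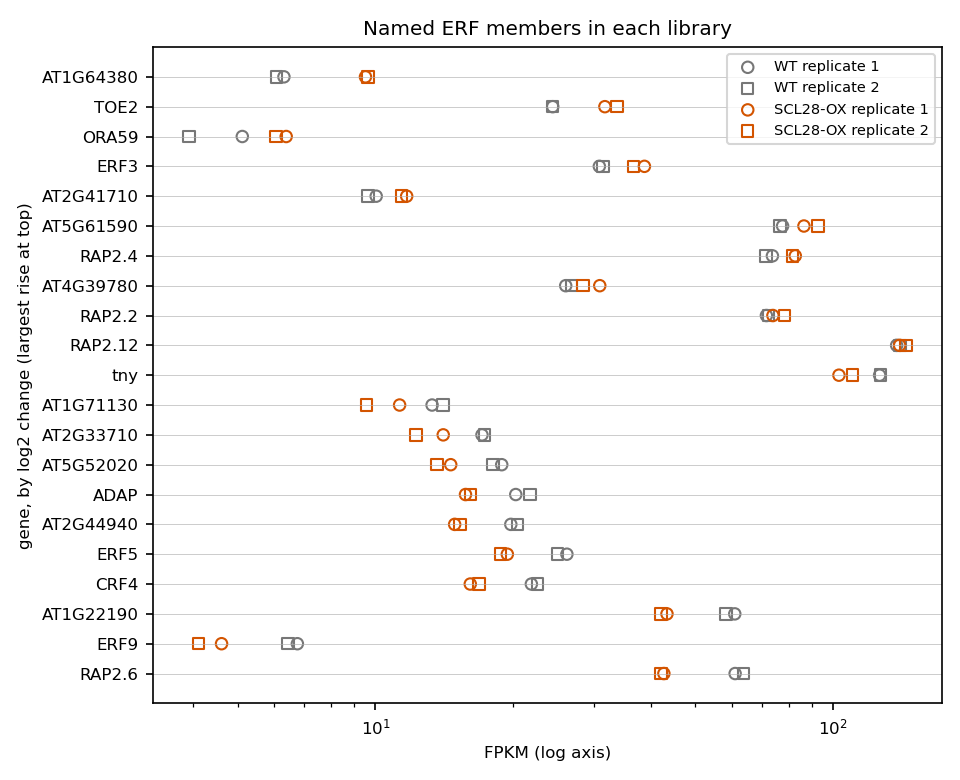
FPKM in each of the 4 libraries for the ERF genes described in full, 1 point per library. The largest rise is AT1G64380 and the largest fall RAP2.6.

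Group II, the DREB A-5 type with several small repressors, had 1 gene higher and 1 lower of 8 (all genes, 32.7% and 33.8%). These were AT1G77640, higher (0.31, length-corrected 0.52), and CEJ1, lower (-0.20, length-corrected 0.10 and not called). When length-corrected 5 were higher (all genes, 21.2%) and none lower (25.8%), with a median of 0.29. Group II transcripts are among the shortest of the family, with a median of 1149 bases.

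Group VIII holds repressors with an EAR motif and also ESR-type genes. The EAR motif was not searched for in these proteins. ERF3 rose from 30.9 and 31.4 FPKM to 38.7 and 36.6 (log2 change 0.27, limma adjusted p = 0.000655; length-corrected 0.27). ERF9 fell from 6.75 and 6.44 FPKM to 4.61 and 4.11 (-0.50, limma adjusted p = 0.000719; length-corrected -0.28). ERF4, a repressor of jasmonate and ethylene responses, was not called, at 24.6 and 24.4 against 25.8 and 24.9 FPKM (0.05). Length-corrected it was higher (0.28, limma adjusted p = 0.0013), but not with length and GC corrected (-0.004). Nor was ERF11, which has a GCC box core, at 1.5 and 1.75 against 1.64 and 2.00 FPKM (0.10; length-corrected 0.31, limma adjusted p = 0.0516), though it was called higher with length and GC corrected (0.46, limma adjusted p = 0.0116). PUCHI, needed for lateral root patterning, read 1.58 and 1.96 against 2.30 and 2.32 FPKM without a call (0.26, limma adjusted p = 0.0545), and was higher when length-corrected (0.33, limma adjusted p = 0.0329).

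Group IX holds the classic activators of ethylene and jasmonate defence. Of its 9 genes 3 were higher and 1 lower (all genes, 32.7% and 33.8%). When length-corrected 6 were higher and 1 lower (all genes, 21.2% and 25.8%). ERF104 (0.14), ERF15 (0.21) and AT5G07580 (0.34) were called higher when length-corrected but not before. ORA59, which joins both signals, read 5.12 and 3.92 FPKM in WT and 6.38 and 6.07 in SCL28-OX. Its log2 change was 0.40 ± 0.11 (SE; limma adjusted p = 0.0122; length-corrected 0.65), and without WT replicate 2 it was 0.24 and not called (limma adjusted p = 0.0561). AT5G61590 (ERF107, DEWAX), a repressor of cuticular wax genes, rose from 77.6 and 76.5 FPKM to 86.4 and 92.6 (0.21; length-corrected 0.39). AT5G51190 was the other rise (0.34; length-corrected 0.64). ERF5, a stress and defence regulator, fell from 26.2 and 25.0 FPKM to 19.4 and 18.8 (-0.40 ± 0.04 (SE), limma adjusted p = 0.000123; length-corrected -0.25). Its relative ERF6 was not called, at 21.2 and 22.0 against 21.8 and 18.1 FPKM (-0.12; length-corrected 0.02). ERF1, a direct EIN3 target, was under the minimum at 0.303 and 0.409 against 0.135 and 0.241 FPKM.

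Group VII proteins are the oxygen-labile ERFs, broken down through their N terminus when oxygen is present. None of the 4 genes was called by limma, though RAP2.2 had an unadjusted limma p of 0.0484 and a q-value of 0.0121 in the authors' deposited table. RAP2.12, the most abundant ERF transcript, stood at 138 and 140 FPKM in WT and 140 and 144 in SCL28-OX, which differed by 0.03 on the log2 scale (limma adjusted p = 0.297; length-corrected -0.01). The genotypes overlapped. RAP2.2 read 71.5 and 72.3 against 73.9 and 78.4 FPKM (0.08, limma adjusted p = 0.0697; length-corrected 0.06). With quantile normalization both were called higher, RAP2.12 by 0.17 (limma adjusted p = 0.00123) and RAP2.2 by 0.18 (limma adjusted p = 0.00299). Without SCL28-OX replicate 1 RAP2.2 was called too (0.12, limma adjusted p = 0.0165). Transcript levels do not show the level of these proteins. Of 9 hypoxia-response genes listed, only 5 reached the minimum and were tested. Of these 1 was lower (all genes, 33.8%), while 3 were when length-corrected (25.8%) and 4 with length and GC corrected (23.9%). HB1, a haemoglobin gene lower in each of these fits, read 21.3 and 20.7 FPKM in WT and 12.6 and 9.92 in SCL28-OX (log2 change -0.85; length-corrected -0.56). The sucrose synthase genes SUS1 (0.14) and SUS4 (0.06) were called only after correction (length-corrected -0.27 and -0.24).

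Among 7 AP2-type genes, TOE2, a floral repressor targeted by miR172, rose from 24.4 and 24.4 FPKM to 31.7 and 33.7 (log2 change 0.41, limma adjusted p = 8.91e-05; length-corrected 0.13). Correcting for length and GC content left 0.11, without a call (limma adjusted p = 0.0635). ADAP, which acts in abscisic acid responses, fell from 20.3 and 21.8 FPKM to 15.7 and 16.1 (-0.38; length-corrected -0.35). AT2G41710, whose interval overlaps another line, read 10.0 and 9.63 against 11.7 and 11.4 FPKM (0.21 in both fits). It was not called without WT replicate 2 (limma adjusted p = 0.0568), with quantile normalization (0.0574) or with length and GC corrected (0.0909). Of the 47 matching genes under the minimum, 17 were listed at 0 in all 4 libraries, SHN1, SHN2 and SHN3 and ABI4 among them.

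The genes that make, sense and pass on ethylene were also tested, together with a list of ethylene response genes. ETR1 is not analysed here. Of 44 tested in these 4 lists, 19 were higher and 15 lower (43.2% and 34.1%, against 32.7% and 33.8% of all genes). Length-corrected, 9 were higher and 15 lower (20.5% and 34.1%, against 21.2% and 25.8%). These transcripts are longer than the ERF genes, with a median of 1874 bases.

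In biosynthesis 4 of 13 were higher and 5 lower (30.8% and 38.5%, against 32.7% and 33.8% of all genes). The ACC oxidase genes EFE (log2 change -0.39; length-corrected -0.33) and ACO1 (-0.30 and -0.45) and the ACC synthase gene ACS6 (-0.28 and -0.31) were lower. AT1G12010, also annotated as an ACC oxidase, was higher (0.27; length-corrected 0.39). ETO1 and its relatives EOL1 and EOL2 promote breakdown of ACC synthases. ETO1 rose by 0.53 and EOL1 by 0.54, but neither was called when length-corrected (0.07 and 0.11). EOL2, whose interval overlaps another line, rose by 1.00 (length-corrected 0.62).

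In perception 5 of 8 were higher and 2 lower (all genes, 32.7% and 33.8%), and 2 and 2 when length-corrected (21.2% and 25.8%). RAN1, a copper transporter for the receptors, read 76.2 and 75.4 against 116 and 115 FPKM (0.60; length-corrected 0.17). CTR1 rose by 0.55 (length-corrected 0.19), but was not called with length and GC corrected (0.09, limma adjusted p = 0.12). The receptor gene EIN4 was higher (0.19) before the length correction and lower (-0.19) after it. With length and GC corrected EIN4 was not called (-0.12, limma adjusted p = 0.0677). In signalling 6 of 10 were higher and 1 lower (all genes, 32.7% and 33.8%), and 1 and 2 when length-corrected (21.2% and 25.8%). EIN2 rose from 20.9 and 21.2 FPKM to 34.3 and 34.5 (0.68), but was not called when length-corrected (0.09, limma adjusted p = 0.0739). XRN4, an exonuclease that acts on EBF transcripts, rose by 0.71 (length-corrected 0.30). Among response genes 4 of 13 were higher and 7 lower (all genes, 32.7% and 33.8%). The length-corrected counts were the same (all genes, 21.2% and 25.8%). With length and GC corrected 2 were higher and 6 lower (all genes, 19.2% and 23.9%). PR4 rose from 145 and 146 FPKM to 175 and 177 (0.27; length-corrected 0.51), and EDF3 fell from 25.6 and 25.7 to 18.9 and 18.9 (-0.42; length-corrected -0.35). PDF1.2, a defensin activated by ORA59, was listed at 0 in all libraries.

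**Figure D5:**
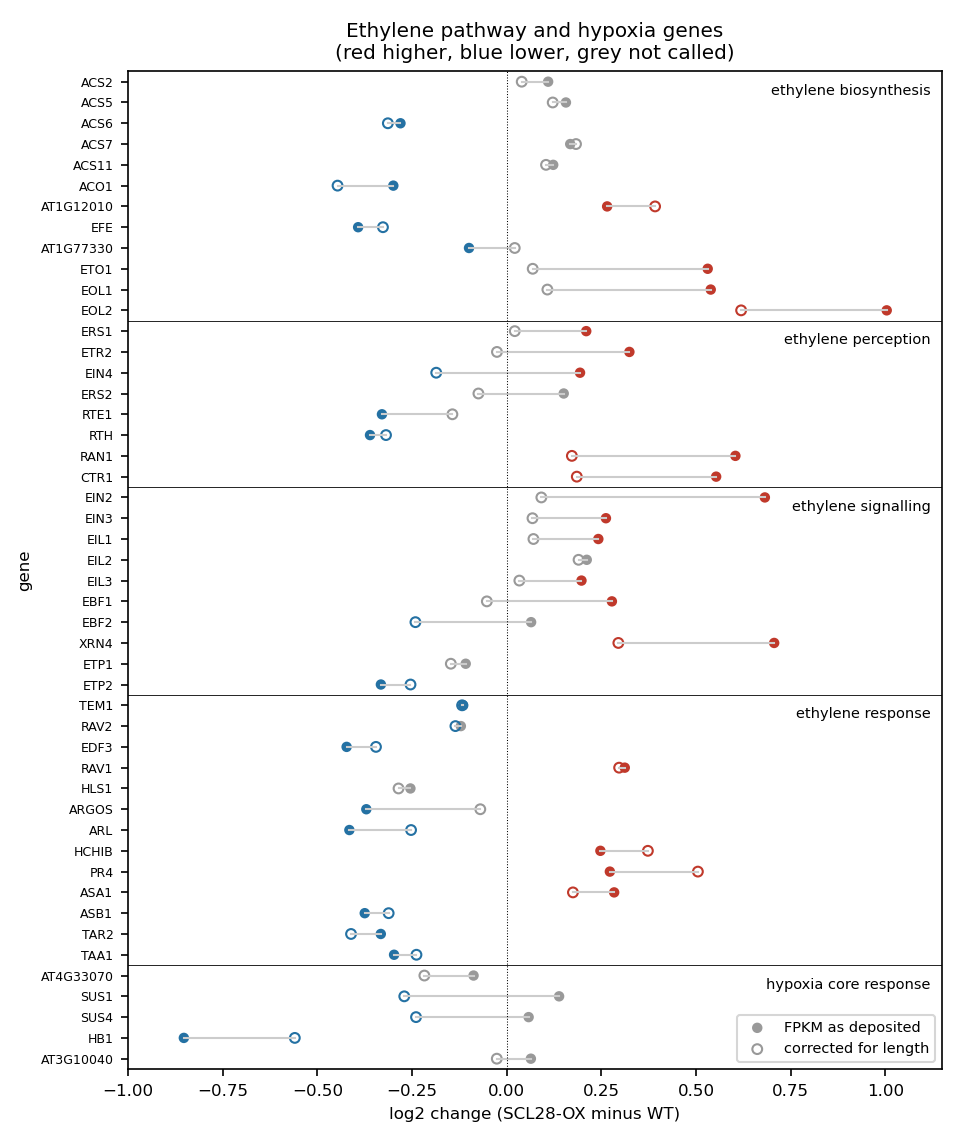
Log2 change (SCL28-OX minus WT) of tested ethylene pathway and hypoxia genes by list, before (filled) and after (open) the length correction, in red where called higher, blue where called lower and grey otherwise; 1 gene is left out. EIN2 is at 0.68 before it and 0.09 after it.

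Markers of cell types differed between the genotypes. Of 3 root cap genes 2 were lower in both fits (NAC015, -0.59, length-corrected -0.38, and NAC070, -0.40 and -0.25), with summed levels of 47.0 and 50.05 FPKM in WT and 35.3 and 35.8 in SCL28-OX. Of 3 root hair genes 3 were higher (summed 144 and 141 against 176 and 174 FPKM), but RHD2 lost its call when length-corrected (0.45 and 0.07). Of 6 photosynthesis genes 3 were higher, and 5 when length-corrected (summed 87.6 and 84.1 against 132 and 133 FPKM), RBCS1A by 0.99 and 1.16. LHCA3 and LHCA1, which gained a call when length-corrected, were not called with length and GC corrected (limma adjusted p = 0.121 and 0.17). The 5 meristem and stem cell niche genes went both ways, SCR higher (0.50 and 0.22) and PLT1 lower (-0.27 and -0.44), with sums of 55.5 and 58.4 against 64.5 and 63.3 FPKM. With length and GC corrected SCR was not called (0.13, limma adjusted p = 0.064) and SHR was lower (-0.21, limma adjusted p = 0.00836). The shares over all genes were 32.7% higher and 33.8% lower, or 21.2% and 25.8% when length-corrected. No marker was at 0 in all libraries. Their part in the ERF results was not tested.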

How the data were processed

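Transcripts were measured by RNA-seq in 2 WT and 2 SCL28-OX root tip libraries. The TruSeq Stranded mRNA kit was used, per the labels' protocols, and nothing states if counting was by strand. Processing used CASAVA 1.8.2, TopHat2 2.0.13, Cuffdiff 2.2.0 and TAIR10, per the submitters' processing notes. The authors deposited FPKM per library, per the file headers, and a comparison table with p-values and q-values, whose q-value alone was used. Of 26883 lines, 60 with shifted columns were left out and 1 is not analysed here.

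Tests ran on log2(FPKM + 1), which understates changes of low genes, where the mean reached 1 FPKM. They used limma 3.58.1 in R 4.3.3 (two-sided; lmFit, then trended eBayes). P-values were adjusted by Benjamini-Hochberg across 18087 genes, with a threshold of 0.05. All p-values given for a gene are adjusted unless said otherwise. No counts were used. The length correction removed from each library its trend on log2 transcript length (natural spline, 5 degrees of freedom; lengths from RefSeq TAIR10.1). Low FPKM steps were whole within 0.1 for 92.76% to 94.31% of values; intervals of counting error were not computed. Gene positions are the deposited ones.

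The members and gene lists were chosen with earlier results of these data known. Genes given in full are the 10 largest rises and falls among called genes without overlap and with a higher mean of at least 5 FPKM (8 rises and 17 falls were eligible), and the 5 most abundant. Other members are named by subfamily, and up to 4 rises and 4 falls per pathway list, of which 1 gene is not reported here. Genes outside these limits, such as EIN4, PDF1.2 and ERF1, were named after their values were seen. Alternatives were other pseudocounts, filters and scalings, no trend, a replicate block, each library left out, and corrections for length and GC. A correction using the length inside the deposited interval was added after seeing the data.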

Additional observations from a re-analysis of the deposited data

How the results depend on the processing

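The length corrections changed the counts most. ERF genes higher in SCL28-OX numbered 10, and 24 after the length correction, 23 with length and GC, and 24 with the length inside the deposited interval, a setting chosen after seeing the data; lower calls went from 19 to 15, 14 and 13. All genes higher went from 5911 to 3755, 3400 and 3601, ethylene pathway genes higher from 19 to 9, 7 and 8, and hypoxia genes lower from 1 to 3, 4 and 3. RAP2.12 changed sign under the length correction, to -0.0101, without a call in either fit; the cause was not tested. The annotated length is over 1.5 times that inside the deposited interval for CRF1, LEP, RAP2.9, DEAR2, AT4G13040 and AT1G71130, and the interval is longer than the annotation for AT5G07580 and RAP2.11.

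Other settings moved no count of ERF calls by more than 1.5 times. Higher and lower calls were 10 and 19 with a pseudocount of 0.1 or 5 FPKM and with median-ratio scaling, 10 and 22 with quantile normalization, 10 and 18 without trend, 9 and 17 with no filter, 8 and 17 with a minimum of 5 FPKM, and 9 and 19 without overlapping or joined lines. Leaving out each library gave 7 to 10 higher and 17 to 19 lower. The replicate block gave 10 higher and 18 lower; the numbers mark 2 pairs, too few to show pairing, and the deviations of same-numbered libraries correlated at 0.122 over 18087 genes.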

Other observations

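Several ERF genes lie beside another of the family within 10000 bases. AT5G61590 and ERF104 are 1061 bases apart on chromosome 5: the first rose (log2 change 0.21, limma adjusted p = 0.00139), while ERF104 read 36.2 and 33.8 FPKM in WT and 35.3 and 35.8 in SCL28-OX and was not called (0.02). Length-corrected both were higher, by 0.39 and 0.14 (limma adjusted p = 0.0268 for ERF104). ERF5, which fell, stands 7115 bases from ERF2, which was under the minimum at 0.314 to 0.590 FPKM. ERF6 and ERF-1, 5457 bases apart on chromosome 4, read 18.1 to 22.0 and 23.7 to 26.8 FPKM, and neither was called. Whether neighbours differ in their change was not tested.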
